A study of Mus musculus with 9 samples.

Results

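The C-type lectin receptors of myeloid cells are membrane proteins with an extracellular fold that binds sugars, lipids or proteins of microbes and damaged cells. The 10 genes described here are Clec4n, Clec4d, Clec4e, Clec7a, Clec4b2, Clec5a, Clec4a1, Clec4a2, Clec4a3 and Clec12a. They were taken by gene symbol, 10 of the 38926 symbols counted, and all 10 passed the filter on low counts that kept 12663 genes. The set was chosen by name with earlier results of these libraries known, in which several of its genes stood among the largest log2 fold changes of both hairpins against control. Their values against the control are therefore given as a description.

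The cells came from a mouse leukaemia that carries the MLL-AF9 fusion oncogene and were taken after tertiary transplantation into mice. Every group carried this oncogene. Libraries were made on day 4 after transduction with shRNA-1 against Syncrip (n = 3), shRNA-2 against Syncrip (n = 3) or a control hairpin (n = 3), a short hairpin RNA being a construct that lowers its target transcript. The series' design text calls the control a luciferase hairpin and the sample labels call it a scramble. Each sample was transduced and handled individually according to the design text, but the sources used here do not say whether the cells came from separate mice, so the p-values measure the spread between separately handled samples.

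Receptors of this class fall into a signalling scheme with 2 arms. One arm (Clec4n or Dectin-2, Clec4d or MCL, Clec4e or Mincle, Clec5a) signals through the adaptors FcRγ, encoded by Fcer1g, or DAP12, encoded by Tyrobp, to the kinase SYK and then to CARD9, BCL10 and MALT1. Clec7a, or Dectin-1, the receptor for fungal β-glucan, reaches SYK through a tyrosine motif in its own tail. The opposing arm, with Clec4a2 (DCIR) and Clec12a (MICL) as its best known receptors, carries inhibitory tyrosine motifs that recruit the phosphatases SHP-1 and SHP-2. Several of these receptors serve as surface markers of maturing myeloid cells, and the human CLEC12A protein is a marker of leukaemic blasts.

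All 10 genes lie on mouse chromosome 6, in 3 places (mm10 coordinates from GENCODE M21). The largest cluster holds 7 genes, in the order Clec4a1, Clec4a3, Clec4a2, Clec4b2, Clec4n, Clec4d and Clec4e, at chr6:122921848-123289870. Clec12a and Clec7a lie together at chr6:129342691-129472779. Clec5a stands alone at chr6:40574894-40585821. Clec7a carries the GENCODE type polymorphic pseudogene, and the other 9 are typed as protein coding.

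The stretch of 250 bases before each transcription start in RefSeq (build GRCm38.p6, the assembly of mm10) was searched on both strands for 4 short motifs of myeloid transcription factors. The table held a start for 9 of the 10 genes, in 11 windows, because Clec4a3 and Clec7a have 2 starts each. Clec4n had no entry. The motifs were GAGGAAG for PU.1, the ETS factor of the myeloid lineage, TTGCGCA for C/EBP, TGAGTCA for AP-1 and TGTGGT for RUNX. The PU.1 motif was found before Clec4a1, Clec4d, Clec5a and Clec12a, in 4 of 11 windows, and in 10.6% of all 32851 RefSeq windows of the same length. The RUNX motif was found before Clec4a1, Clec4a3, Clec4e, Clec5a and Clec12a, in 6 of 11 windows and 14.0% of all windows. The C/EBP motif was found before Clec12a alone among the 10 genes and in 1.69% of all windows, and the AP-1 motif was found before none of them and in 4.46% of all windows. The 2 windows of Clec4a3 overlap, as do those of Clec7a, so the windows are not independent, and a match is a run of letters and not a shown binding site.

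Of the 4 genes with a PU.1 motif, Clec4a1 and Clec4d were among those called higher with both hairpins, and Clec5a and Clec12a were called with neither. Their windows are printed to show that the same letters stood before genes of both kinds. The windows lie at chr6:122921598-122921847 (plus strand) for Clec4a1, chr6:123261857-123262106 (plus strand) for Clec4d, chr6:40585806-40586055 (minus strand) for Clec5a and chr6:129349994-129350243 (plus strand) for Clec12a. Each is written 5′ to 3′ towards the start of the gene, and capitals mark the motif matches, where CTTCCTC is the PU.1 motif read on the other strand. In the Clec12a window the C/EBP motif matched on both strands in overlapping positions, which gives a run of 8 capitals.
Clec4a1: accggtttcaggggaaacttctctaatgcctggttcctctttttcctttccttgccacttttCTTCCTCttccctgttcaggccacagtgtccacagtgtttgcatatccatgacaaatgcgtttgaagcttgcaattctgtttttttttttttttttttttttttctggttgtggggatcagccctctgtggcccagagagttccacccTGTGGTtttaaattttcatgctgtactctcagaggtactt
Clec4d: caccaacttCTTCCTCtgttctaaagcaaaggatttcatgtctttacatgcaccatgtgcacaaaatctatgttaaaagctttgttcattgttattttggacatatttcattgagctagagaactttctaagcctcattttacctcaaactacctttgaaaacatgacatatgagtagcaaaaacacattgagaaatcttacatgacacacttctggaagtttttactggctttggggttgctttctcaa
Clec5a: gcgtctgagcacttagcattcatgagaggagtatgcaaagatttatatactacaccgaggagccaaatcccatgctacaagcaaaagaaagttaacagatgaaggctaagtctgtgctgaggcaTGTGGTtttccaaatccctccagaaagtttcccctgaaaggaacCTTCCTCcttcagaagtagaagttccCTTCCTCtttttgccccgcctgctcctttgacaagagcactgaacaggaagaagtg
Clec12a: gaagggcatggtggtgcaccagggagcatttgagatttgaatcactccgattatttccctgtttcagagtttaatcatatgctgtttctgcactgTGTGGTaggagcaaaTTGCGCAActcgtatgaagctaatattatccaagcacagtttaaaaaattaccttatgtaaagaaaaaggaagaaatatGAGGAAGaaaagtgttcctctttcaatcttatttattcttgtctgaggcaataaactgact

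The libraries held between 9559638 and 19483923 counts. Levels are given in CPM, counts of a gene relative to the total of its library, after TMM scaling of library sizes. The target Syncrip averaged 17.8 ± 2.13 CPM with shRNA-1, 56.7 ± 9.05 CPM with shRNA-2 and 226.7 ± 17.5 CPM in control libraries (SD, n = 3 each), so the remaining transcript was lower with shRNA-1 than with shRNA-2. The ribosomal RNA share is that of Gm26924 together with the mitochondrial genes mt-Rnr1 and mt-Rnr2. These genes took 14.8%, 12.0% and 19.3% of the counts in shRNA-1 libraries, 6.10%, 15.8% and 10.4% in shRNA-2 libraries, and 7.86%, 8.29% and 4.77% in control libraries. All 3 shRNA-1 libraries stood above all controls in this share, while the shRNA-2 libraries overlapped them.

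Counts of these receptors were higher in both Syncrip hairpin groups for most of the genes. With shRNA-1, 7 of the 10 were called higher than in control (edgeR's quasi-likelihood test, adjusted p under 0.05), beside 17.4% of all tested genes. With shRNA-2, 8 of the 10 were called higher, beside 24.4% of all tested genes. The 7 called with shRNA-1 were also called with shRNA-2, a pattern that 9.24% of all tested genes had, and Clec4e was called with shRNA-2 alone. Clec5a and Clec12a were called with neither hairpin and no receptor was called lower, nor was any at an unadjusted p under 0.05 in edgeR or by DESeq2 or limma-voom. In the edgeR fit without the filter on low counts, however, Clec5a was called lower with shRNA-2 (-0.47). Both comparisons use the same control libraries, and since earlier results of these contrasts were known when the genes were chosen, nothing is read from these shares. When the share of ribosomal RNA entered the fit, 4 of the 10 were called with shRNA-1, because Clec4a1 (1.15 on the log2 scale), Clec4b2 (2.19) and Clec7a (0.57) no longer passed. The higher calls over all tested genes with shRNA-1 fell as well in that fit, from 17.4% to 6.53%. The ribosomal share separates shRNA-1 from control completely, so its part in these values and that of the hairpin cannot be told apart. For shRNA-2 the same covariate left 8 of the 10 called, beside 23.0% of all tested genes called higher.

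**Figure D1:**
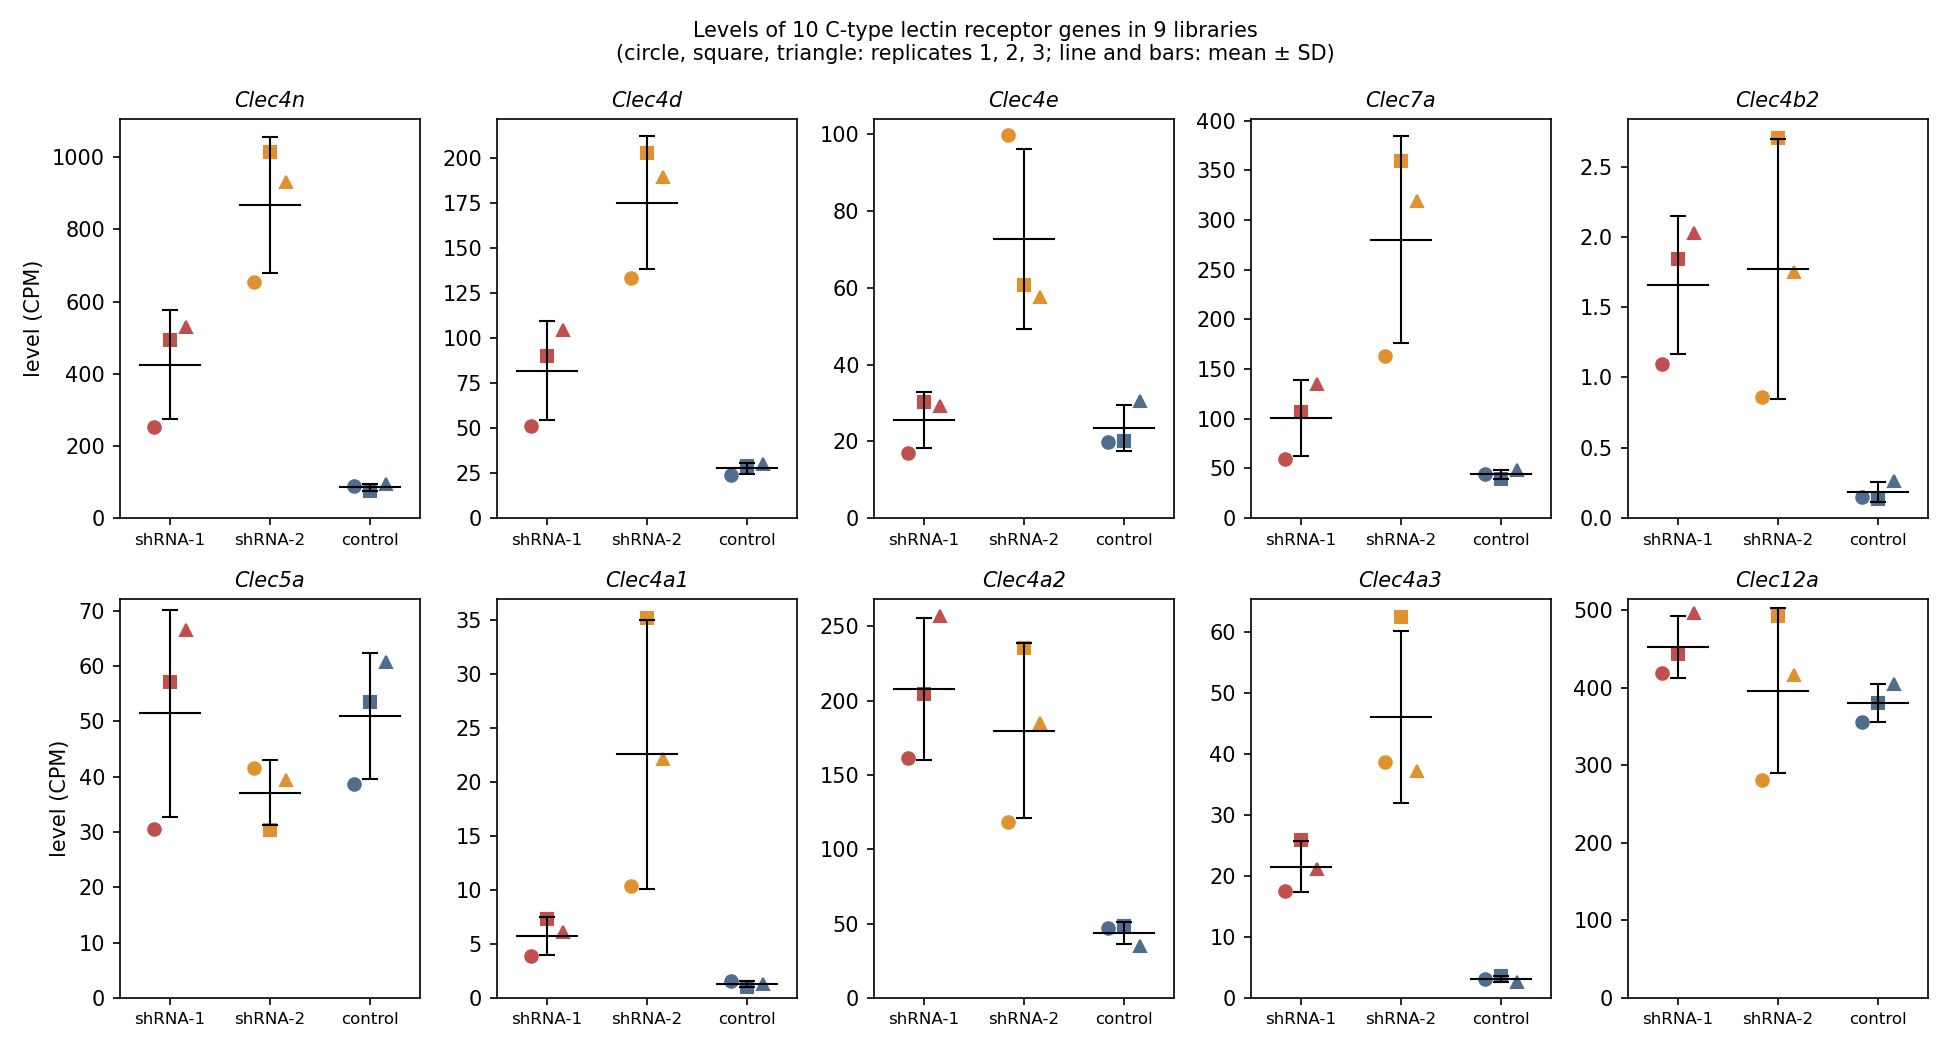
Level of each of the 10 receptor genes in CPM (vertical axis, from 0, with its own scale per gene) in the shRNA-1, shRNA-2 and control libraries. Points are single libraries, with the circle, square and triangle for replicates 1, 2 and 3, and lines with bars give the mean ± SD (n = 3). For Clec4n the shRNA-2 libraries sit between 656 and 1016 CPM, above all shRNA-1 libraries, and these sit above all controls, whereas for Clec5a and Clec12a the 3 groups lie close together.

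Among the receptors that signal through FcRγ, Clec4n, the Dectin-2 receptor for fungal mannans, had the highest counts with either hairpin. It had 253, 494 and 529 CPM in shRNA-1 libraries, 656, 1016 and 932 CPM in shRNA-2 libraries, and 88.2, 74.1 and 93.4 CPM in control libraries. Neither hairpin group overlapped the control, and every shRNA-2 library lay above every shRNA-1 library. The fitted change was 2.32 ± 0.26 with shRNA-1 and 3.35 ± 0.27 with shRNA-2 on the log2 scale (± standard error), which is 4.99-fold and 10.2-fold.

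Clec4d encodes MCL, a receptor that pairs with Mincle. It had 51.1, 89.9 and 104.6 CPM in shRNA-1 libraries, 133, 203 and 189 CPM in shRNA-2 libraries, and 23.9, 28.8 and 30.0 CPM in control libraries. As for Clec4n, the 3 groups were fully separated, with shRNA-2 on top. The log2 change against control was 1.57 ± 0.24 with shRNA-1 and 2.67 ± 0.25 with shRNA-2.

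Clec4e encodes Mincle itself, which binds a mycobacterial cord lipid. Its level was 17.0, 30.3 and 29.2 CPM in shRNA-1 libraries, 99.8, 60.8 and 57.5 CPM in shRNA-2 libraries, and 19.8, 20.0 and 30.4 CPM in control libraries. The shRNA-1 libraries overlapped the controls, and the shRNA-2 libraries stood above both. Its log2 change was 0.12 ± 0.27 with shRNA-1, which did not pass the test, and 1.63 ± 0.27 with shRNA-2. Clec4d and Clec4e are neighbours in the genome and partners at the protein level, and with shRNA-1 the log2 change of Clec4d was 1.57 where that of Clec4e was 0.12.

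Clec7a, the β-glucan receptor Dectin-1, had 59.7, 107 and 135 CPM in shRNA-1 libraries, 163, 359 and 319 CPM in shRNA-2 libraries, and 44.5, 39.1 and 48.1 CPM in control libraries. Neither hairpin group overlapped the control. The lowest library of each hairpin group was its replicate 1. The log2 change was 1.20 ± 0.30 with shRNA-1 and 2.67 ± 0.32 with shRNA-2.

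Clec4b2, a gene of the large cluster, was counted at low levels in every library. It had 1.10, 1.84 and 2.03 CPM in shRNA-1 libraries, 0.859, 2.71 and 1.75 CPM in shRNA-2 libraries, and 0.152, 0.133 and 0.265 CPM in control libraries. In all, 56 counts in shRNA-1 libraries and 75 in shRNA-2 libraries stood against 11 in control libraries. The ratio of the summed rates to control was 8.87 with shRNA-1 (exact 95% interval 4.60 to 18.8) and 8.89 with shRNA-2 (4.69 to 18.6), and these intervals cover counting error only. No hairpin library overlapped a control library, and the fitted log2 changes were 3.14 ± 0.55 with shRNA-1 and 3.20 ± 0.53 with shRNA-2.

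Clec5a, which signals through DAP12, did not follow the others. It had 30.5, 57.1 and 66.5 CPM in shRNA-1 libraries, 41.5, 30.4 and 39.4 CPM in shRNA-2 libraries, and 38.6, 53.5 and 60.8 CPM in control libraries. All 3 groups overlapped. The log2 change was 0.02 ± 0.25 with shRNA-1 (95% interval -0.48 to 0.51) and -0.46 ± 0.25 with shRNA-2 (-0.95 to 0.04). These intervals exclude a change of the size seen for Clec4n with either hairpin. Without the filter on low counts the fall with shRNA-2 passed (-0.47).

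The DCIR genes of the set are Clec4a2, which carries the inhibitory motif, and its close relatives Clec4a3 and Clec4a1. Clec4a2 had 162, 205 and 257 CPM in shRNA-1 libraries, 119, 236 and 185 CPM in shRNA-2 libraries, and 47.3, 48.5 and 35.0 CPM in control libraries. The hairpin groups overlapped each other and lay wholly above the control, with log2 changes of 2.26 ± 0.25 for shRNA-1 and 2.05 ± 0.25 for shRNA-2. Of the transcript windows of 50 bases in Clec4a2, 6.69% also occur in another gene, 3.85% in Clec4a4, so part of its counts is uncertain. None of the windows of Clec4a1, Clec4a3, Clec4b2, Clec4d, Clec4e, Clec5a or Clec7a occur in another gene, and the shares for Clec4n and Clec12a were 0.686% and 0.402%.

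Clec4a3 had 17.6, 26.0 and 21.1 CPM in shRNA-1 libraries, 38.7, 62.4 and 37.2 CPM in shRNA-2 libraries, and 3.14, 3.51 and 2.61 CPM in control libraries. The groups were fully separated, and the log2 changes were 2.82 ± 0.24 for shRNA-1 and 3.91 ± 0.25 for shRNA-2. Clec4a1 had 3.84, 7.30 and 6.09 CPM in shRNA-1 libraries, 10.3, 35.2 and 22.1 CPM in shRNA-2 libraries, and 1.57, 0.995 and 1.33 CPM in control libraries. Clec4a1 had the highest fold of the 10 with shRNA-2, at 17.1-fold and a log2 change of 4.10 ± 0.43, and its change with shRNA-1 was 2.15 ± 0.45. Its shRNA-2 libraries also spread more than those of most receptors, with 35.2 CPM in replicate 2 against 10.3 CPM in replicate 1.

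Clec12a, the inhibitory receptor MICL, had the highest CPM of the set in control cells and passed the test with neither hairpin. Its level was 418, 444 and 497 CPM in shRNA-1 libraries, 281, 492 and 416 CPM in shRNA-2 libraries, and 356, 380 and 404 CPM in control libraries. The shRNA-1 libraries lay just above the controls and the shRNA-2 libraries lay on both sides of them. The log2 change was 0.25 ± 0.18 for shRNA-1 (95% interval -0.10 to 0.61) and 0.06 ± 0.18 for shRNA-2 (-0.29 to 0.41). Clec12a was the only uncalled receptor whose libraries did not overlap between a hairpin and the control. In all, 8 receptors lay wholly above control with shRNA-1 (26.8% of all tested genes did) and 8 with shRNA-2 (27.3%).

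**Figure D2:**
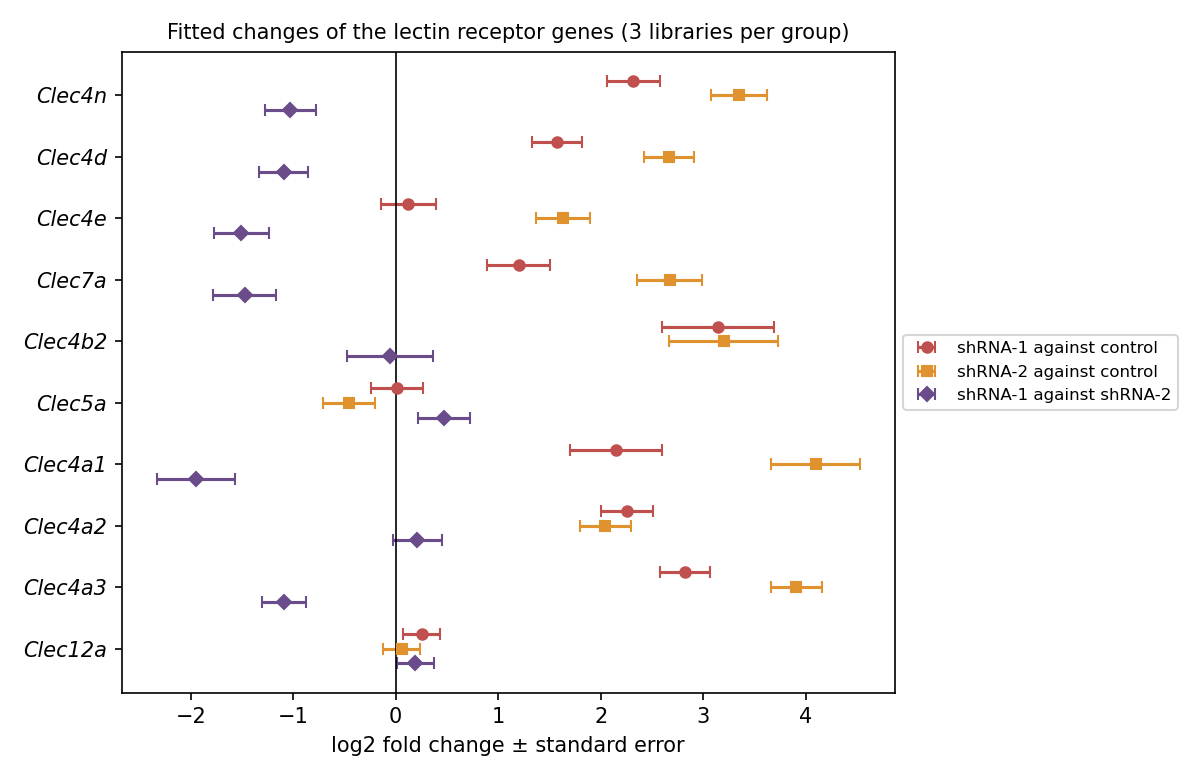
Fitted log2 fold change ± standard error of each receptor gene (rows) for shRNA-1 against control, shRNA-2 against control and shRNA-1 against shRNA-2, with 3 libraries per group. Diamonds left of 0 are receptors lower with shRNA-1 than with shRNA-2. Clec4a1 stands farthest left at -1.95. Clec12a lies near 0 in every comparison, and Clec5a lies at 0.02, -0.46 and 0.47 in the order given.

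The difference between the hairpins was not used to choose the genes, although it shares its libraries with the contrasts that were known. Of the 10 receptors, 6 were lower with shRNA-1 than with shRNA-2 in edgeR's quasi-likelihood test, beside 21.3% of all tested genes, and none was higher (19.7% of all tested genes were), nor at an unadjusted p under 0.05 or by DESeq2 or limma-voom. The same 6 also had all shRNA-1 libraries below all shRNA-2 libraries, as 24.3% of all tested genes did. The lower receptor levels were those of shRNA-1, the hairpin that left less Syncrip transcript, and a dose relation cannot be tested with 2 hairpins. In the SYK arm, Clec4e had a log2 difference of -1.51 ± 0.27 (edgeR adjusted p = 0.000947) and 3 of 3 shRNA-1 libraries below every shRNA-2 library. Clec7a differed by -1.47 ± 0.30 (edgeR adjusted p = 0.00245), Clec4d by -1.09 ± 0.24 (edgeR adjusted p = 0.00318) and Clec4n by -1.03 ± 0.25 (edgeR adjusted p = 0.00656). In the DCIR group the difference was -1.95 ± 0.38 for Clec4a1 (edgeR adjusted p = 0.00175) and -1.09 ± 0.21 for Clec4a3 (edgeR adjusted p = 0.00171).

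The remaining 4 receptors did not pass this test. Clec4a2 differed by 0.21 ± 0.24 (95% interval -0.26 to 0.68, edgeR adjusted p = 0.513), so that within the DCIR group the relatives were 2.13-fold and 3.86-fold lower with shRNA-1 while the interval of Clec4a2 excludes a fall of that size. Clec4b2 differed by -0.06 ± 0.42 (-0.87 to 0.76, edgeR adjusted p = 0.93), and its low counts leave this interval wide. Clec12a differed by 0.19 ± 0.18 (-0.16 to 0.55, edgeR adjusted p = 0.421). Clec5a differed by 0.47 ± 0.26 (-0.03 to 0.97, edgeR adjusted p = 0.163), and without shRNA-1 replicate 1, its lowest shRNA-1 library, the difference was 0.74 and passed (edgeR adjusted p = 0.017).

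Levels of different genes are comparable only per length, so CPM was divided by the kilobases of exon in GENCODE M21. The cDNA was primed with oligo-dT and then with random decamers, so a level per length is an approximate scale. With shRNA-1 Clec4n stood at 299.6 ± 105.8 CPM per kb, followed by Clec12a (81.9 ± 7.22), Clec4a2 (71.0 ± 16.4), Clec4d (51.2 ± 17.3) and Clec7a (38.2 ± 14.5), and after Clec4n the mean ± SD of each overlapped that of its neighbour. With shRNA-2 Clec4n stood at 611 ± 133 CPM per kb, followed by Clec4d (109.5 ± 23.1), Clec7a (106 ± 39.3), Clec12a (71.7 ± 19.3) and Clec4a2 (61.5 ± 20.1).

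In control cells the order was another. Clec12a stood first at 68.7 ± 4.39 CPM per kb, followed by Clec4n at 60.0 ± 7.03 CPM per kb, and their means ± SD overlapped. Clec4d (17.3 ± 2.01), Clec7a (16.6 ± 1.71), Clec4a2 (14.9 ± 2.56) and Clec5a (13.3 ± 2.95) formed a group with overlapping spreads on the same scale. Clec4e (4.72 ± 1.22), Clec4a3 (2.33 ± 0.34), Clec4a1 (0.833 ± 0.186) and Clec4b2 (0.156 ± 0.061) followed in that order, each separated from the next by more than their spreads. Of the summed level of the 10 genes per kb, Clec4n made up 51.5% with shRNA-1, 59.1% with shRNA-2 and 30.2% in control. Clec12a made up 14.1% with shRNA-1, 6.93% with shRNA-2 and 34.6% in control. On this scale Clec4n led the summed receptor transcript with either hairpin, while Clec12a and then Clec4n stood highest in control cells.

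**Figure D3:**
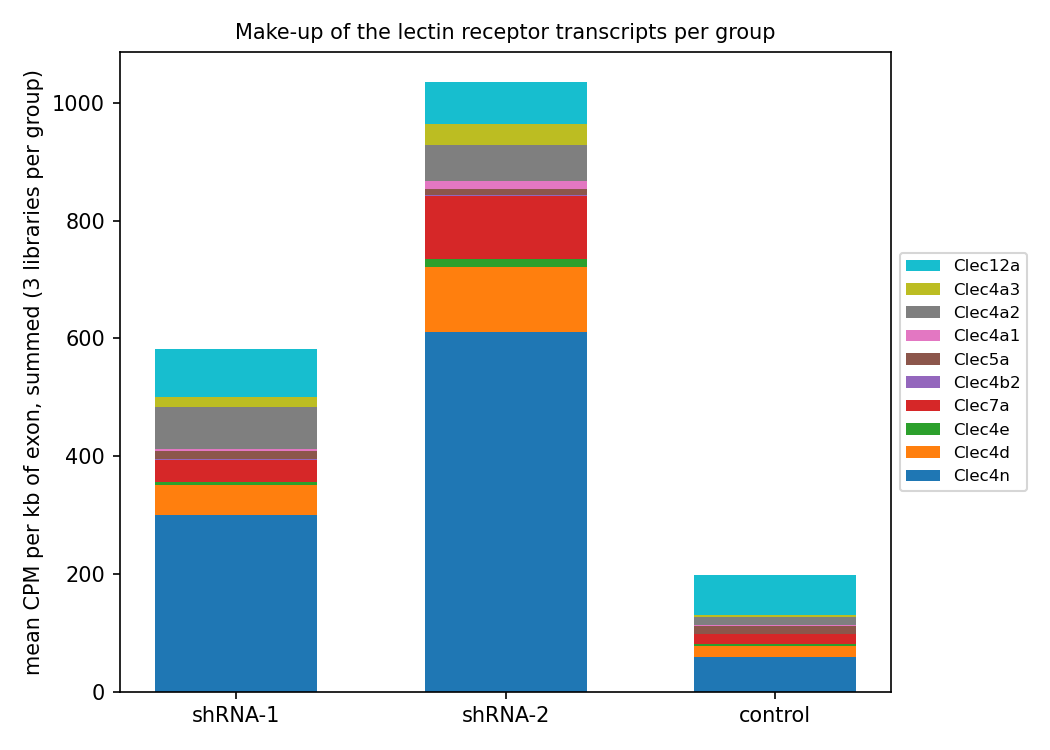
Mean level of each receptor gene per kilobase of exon (CPM per kb, stacked, 3 libraries per group) with shRNA-1, with shRNA-2 and in control. Clec4n, the bottom segment, fills 51.5%, 59.1% and 30.2% of the bars in that order, and Clec12a, the top segment, keeps about the same height while its share differs.

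Within groups most of the receptors also varied together. After each group's own mean log2 CPM was removed, shRNA-1 replicate 1 lay below its group for all 10 receptors, by 0.49 on average. For shRNA-2, replicate 1 lay below its group for 8 of the 10, and Clec4e (0.50 above) and Clec5a (0.18 above) were the exceptions. Of the control libraries, replicates 1 and 2 each had 5 of the 10 above their group and replicate 3 had 8. Over the 45 pairs of receptors the correlation of these deviations across the 9 libraries had a median of 0.68 and ran from -0.33 to 0.95, with 39 of the 45 above 0. The libraries share their depth and scaling across all genes, and no label names a batch, so no within-batch value can be given. The same correlations were not computed for other genes, so they are not read as particular to the receptors.

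**Figure D4:**
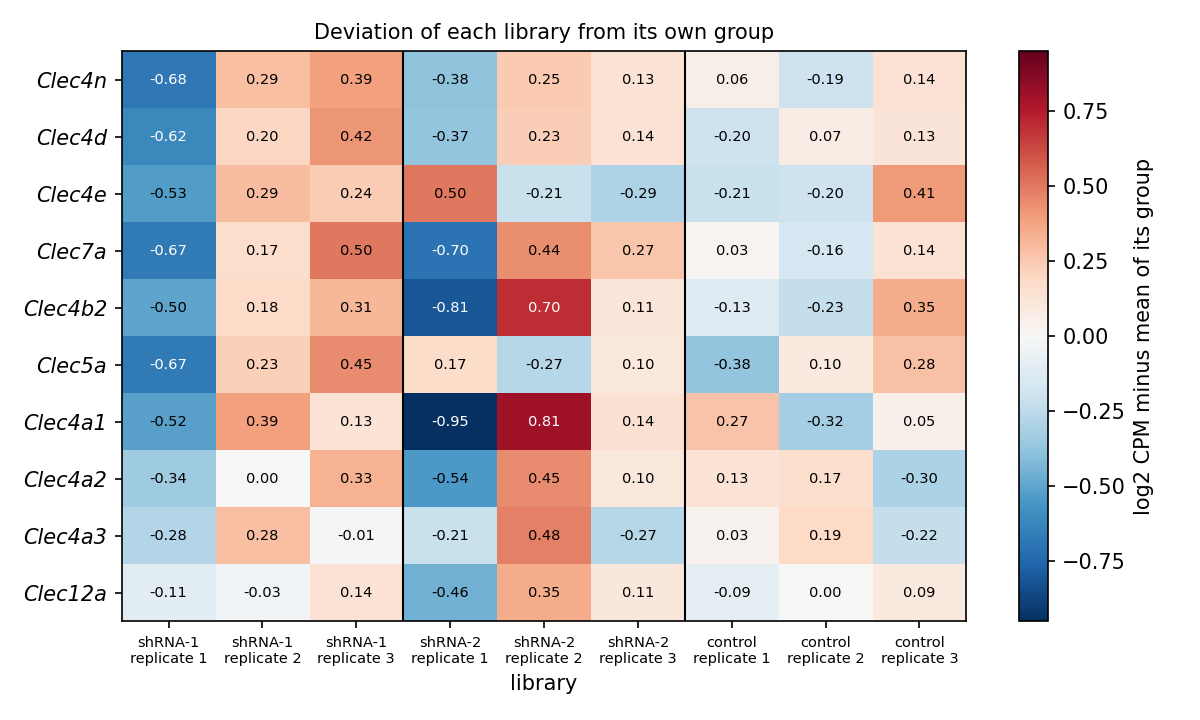
Log2 CPM of each receptor gene (rows) in each library (columns) minus the mean of that library's group, with blue below and red above the group mean. The column of shRNA-1 replicate 1 is blue in all 10 rows, and in the column of shRNA-2 replicate 1 only Clec4e and Clec5a are red.

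Taken over all 9 libraries, with the group differences left in, the log2 level of each receptor was set against the mean standardised level of the other 9. The correlation was 0.97 for Clec4n and Clec4d, 0.94 for Clec4b2, 0.93 for Clec4a1 and Clec7a, 0.92 for Clec4a3 and 0.87 for Clec4a2. It was 0.59 for Clec4e, 0.30 for Clec12a and -0.28 for Clec5a. The tested genes outside the set whose profile was most like the mean of the 10 were Mpeg1 (r = 0.991 over 9 libraries), Lyz2 (0.991), Slfn2 (0.987), March1 (0.987), Glipr2 (0.987), Mmp8 (0.984), Ccr1 (0.984) and Chst15 (0.982). Mpeg1, the pore-forming perforin-2 of macrophages, averaged 35.3 ± 16.0 CPM with shRNA-1, 55.3 ± 19.0 CPM with shRNA-2 and 8.36 ± 1.37 CPM in control (SD, n = 3 each). Lyz2, the lysozyme of myeloid cells, averaged 1293 ± 536 CPM with shRNA-1, 1729 ± 614 CPM with shRNA-2 and 402 ± 83.5 CPM in control. These correlations span 3 groups and so include the differences between them. All 8 genes were called higher with shRNA-1, and none passed with the ribosomal RNA covariate (Mpeg1 1.41 and Lyz2 1.25 on the log2 scale).

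The signalling partners of the receptors were called in both directions. Of 20 adaptor and kinase genes, all tested, 5 were called higher and 3 lower with shRNA-1 (17.4% and 17.3% of all tested genes), and 7 higher and 2 lower with shRNA-2 (24.4% and 24.2%), the last pair becoming 4 and 4 when library totals replaced TMM scaling. The lower count for shRNA-1 was 5 under that scaling and 1 with the ribosomal RNA covariate. The median log2 change of the list was 0.14 with shRNA-1 and 0.32 with shRNA-2, beside 0.02 and 0.00 over all tested genes. Scaling by library totals alone moved the median of all genes to -0.23 for the shRNA-1 contrast and to -0.21 for the shRNA-2 contrast. The same scaling turned the calls over all genes with shRNA-1 to 1084 higher and 3465 lower, against 2201 and 2188 with TMM, and those with shRNA-2 to 2130 and 4205, against 3095 and 3067.

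The common adaptor of Clec4n, Clec4d and Clec4e, Fcer1g, averaged 918 ± 143 CPM with shRNA-1, 1059 ± 263 CPM with shRNA-2 and 646 ± 52.8 CPM in control (SD, n = 3 each). Its log2 change was 0.71 ± 0.19 with shRNA-2, which passed the test, and 0.51 ± 0.19 with shRNA-1, which passed only in some of the alternative fits, without shRNA-1 replicate 1 among them (0.62). Hcst, the adaptor DAP10, was higher under either hairpin (1.16 ± 0.16 for shRNA-1, 0.69 ± 0.16 for shRNA-2). Lyn, a Src-family kinase that phosphorylates adaptor motifs, was also higher under either hairpin (0.65 ± 0.16 for shRNA-1, 1.38 ± 0.16 for shRNA-2), although for shRNA-1 it did not pass when library totals alone were used (0.40) or with the ribosomal RNA covariate (0.45). Btk, a kinase downstream of SYK and LYN, was lower under either hairpin (-1.38 ± 0.17 for shRNA-1, -0.74 ± 0.17 for shRNA-2). Syk, the kinase on which this arm converges, averaged 52.9 ± 3.47 CPM with shRNA-1, 98.4 ± 11.0 CPM with shRNA-2 and 71.1 ± 2.63 CPM in control. It was thus lower with shRNA-1 (-0.43 ± 0.12) and higher with shRNA-2 (0.47 ± 0.12), the fall not passing without shRNA-1 replicate 1 (-0.38) or control replicate 3 (-0.41) or with the ribosomal RNA covariate (-0.36), and the rise not with library totals alone (0.26). The difference in Syk between the hairpins was -0.89 ± 0.12 (edgeR adjusted p = 0.000139). Pik3r1 had a log2 change of -0.14 ± 0.13 with shRNA-1, which did not pass, and was lower with shRNA-2 (-0.50 ± 0.13).

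The phosphatases that inhibitory receptors recruit numbered 4, and none was called with shRNA-1 in edgeR, nor at an unadjusted p under 0.05 or by DESeq2 or limma-voom. With shRNA-2, 2 were called higher and 1 lower. Over all tested genes 17.4% were called higher and 17.3% lower with shRNA-1, and 24.4% and 24.2% with shRNA-2. Inpp5d (SHIP-1) changed by -0.10 ± 0.12 with shRNA-1 and 0.47 ± 0.12 with shRNA-2, and Inppl1 (SHIP-2) by -0.05 ± 0.13 with shRNA-1 and 0.42 ± 0.13 with shRNA-2, both called with shRNA-2 but not when library totals alone were used (0.26 and 0.20). The Inppl1 call was also lost without control replicate 2 (0.35). Ptpn11 (SHP-2) changed by -0.01 ± 0.16 with shRNA-1 and fell with shRNA-2 (-0.86 ± 0.16).

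Genes that SYK and CARD9 signalling induces in myeloid cells were tested for 10 of 19. With shRNA-1, 1 was called higher and 1 lower, beside 17.4% and 17.3% of all tested genes. With shRNA-2, 3 were called higher and none lower, beside 24.4% and 24.2% of all tested genes. The shRNA-2 counts included 5 higher without control replicate 3 and 1 lower without control replicate 1. At an unadjusted p under 0.05 in edgeR 1 was lower with shRNA-2, Nfkbiz, and by DESeq2 and limma-voom 0. The higher count for shRNA-1 was 4 when replicate 1 of that group was left out, 2 without replicate 3 of the controls, and 0 without replicate 2 or 3 of shRNA-1 or replicate 1 or 2 of the controls. The chemokine Ccl4 averaged 39.9 ± 10.1 CPM with shRNA-1, 184.5 ± 89.4 CPM with shRNA-2 and 37.7 ± 16.3 CPM in control, with log2 changes of 0.08 ± 0.35 for shRNA-1 and 2.29 ± 0.36 for shRNA-2. The inflammasome sensor Nlrp3 was higher under either hairpin (0.97 ± 0.30 for shRNA-1, 2.40 ± 0.30 for shRNA-2). Its shRNA-1 call was lost when replicate 2 (0.73) or 3 (0.90) of that group, or replicate 1 (0.78) or 2 (1.01) of the controls, was left out. Ccl3 had a log2 change of -1.19 ± 0.42 with shRNA-1, which passed only narrowly and not without any 1 shRNA-1 library (-1.03, -1.20 and -1.37), shRNA-2 replicate 3 (-1.19) or control replicate 3 (-0.64). Nor did it pass by DESeq2 (-1.21), by limma-voom (-1.09) or with the 5 CPM filter (-1.19). With shRNA-2 Ccl3 changed by 1.00 ± 0.41, which did not pass. It passed without the filter (0.98), with the replicate block (1.02), with the ribosomal RNA covariate (1.54), and without shRNA-2 replicate 2 (1.27) or control replicate 3 (1.57). Egr2 changed by 0.44 ± 0.36 with shRNA-1 and was called higher with shRNA-2 (0.98 ± 0.34), but not when replicate 1 (0.87) or 2 (0.97) of that group or replicate 1 (0.79) or 2 (0.86) of the controls was left out. Il10 and Cxcl1 had no count in any library.

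Lectin-like genes outside the set were called in both directions. Of 55 with a symbol in the tables, 19 were tested. With shRNA-1, 4 were called higher and 4 lower, beside 17.4% and 17.3% of all tested genes. With shRNA-2, 8 were called higher (5 with library totals alone) and 2 lower, beside 24.4% and 24.2% of all tested genes. The lower count with shRNA-2 was 1 when replicate 3 of that group or replicate 1 or 2 of the controls was left out, because the growth factor gene Clec11a (-0.45 ± 0.15 with shRNA-2) then missed the test (-0.39, -0.33 and -0.46). The median log2 change was 0.08 with shRNA-1 and 0.44 with shRNA-2. Mgl2, a galactose-type lectin of macrophages, rose under either hairpin (2.33 ± 0.16 for shRNA-1, 1.96 ± 0.16 for shRNA-2). The activation marker Cd69 fell under either hairpin (-1.24 ± 0.20 for shRNA-1, -0.80 ± 0.20 for shRNA-2). Cd93 fell with shRNA-1 (-1.20 ± 0.13) and changed by 0.12 ± 0.13 with shRNA-2. Olr1 was higher with shRNA-2 (0.44 ± 0.14), but not when its own replicate 1 (0.30) or replicate 1 (0.44) or 2 (0.45) of the controls was left out, or with library totals alone (0.23).

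Genes beside the receptors in the genome did not all follow them. Within 250 kb of the 7-gene cluster 6 other genes were tested, of which 4 were called higher with shRNA-1, 4 with shRNA-2 and 3 with both. Over all tested genes 17.4% were called higher and 17.3% lower with shRNA-1, 24.4% and 24.2% with shRNA-2, and 9.24% higher with both. C3ar1, the receptor for complement C3a, averaged 49.4 CPM with shRNA-1, 252.5 CPM with shRNA-2 and 21.9 CPM in control, with log2 changes of 1.17 ± 0.30 for shRNA-1 and 3.53 ± 0.32 for shRNA-2. Foxj2 (1.53 ± 0.22 with shRNA-1 and 1.61 ± 0.21 with shRNA-2) and Necap1 (0.80 ± 0.15 with shRNA-1 and 0.84 ± 0.15 with shRNA-2) were the other genes called with both. Gm5883 was called with shRNA-1 (1.38 ± 0.475) but not with shRNA-2. C3ar1 (0.38), Necap1 (0.64) and Gm5883 (2.08) did not pass for shRNA-1 once the ribosomal RNA covariate was in the fit. The shRNA-1 call of Gm5883 was also lost with library totals alone (1.15). It was lost too without shRNA-1 replicate 1 (0.99) or 2 (1.45) or control replicate 2 (1.34) or 3 (1.13). Beside Clec12a and Clec7a 7 genes were tested, with 1 called higher and 2 lower with shRNA-1 (1 lower when replicate 1 or 2 of that group or replicate 3 of the controls was left out) and 3 higher and 1 lower with shRNA-2. Of the 3 genes tested beside Clec5a, 2 were called higher and 1 lower with shRNA-1, and 1 higher and 1 lower with shRNA-2. Mgam was lower under either hairpin (-2.11 ± 0.24 for shRNA-1, -0.92 ± 0.22 for shRNA-2). E330009J07Rik was higher under either (1.23 ± 0.13 for shRNA-1, 0.53 ± 0.13 for shRNA-2), for shRNA-2 not with library totals alone (0.31). Ssbp1 was called higher with shRNA-1 (1.09 ± 0.28), but not with library totals alone (0.85) or without control replicate 2 (0.995). Clec4e and Clec4d, whose genes adjoin, and Clec12a and Clec7a, which share a place, differed from each other with shRNA-1 in whether they were called.

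**Figure D5:**
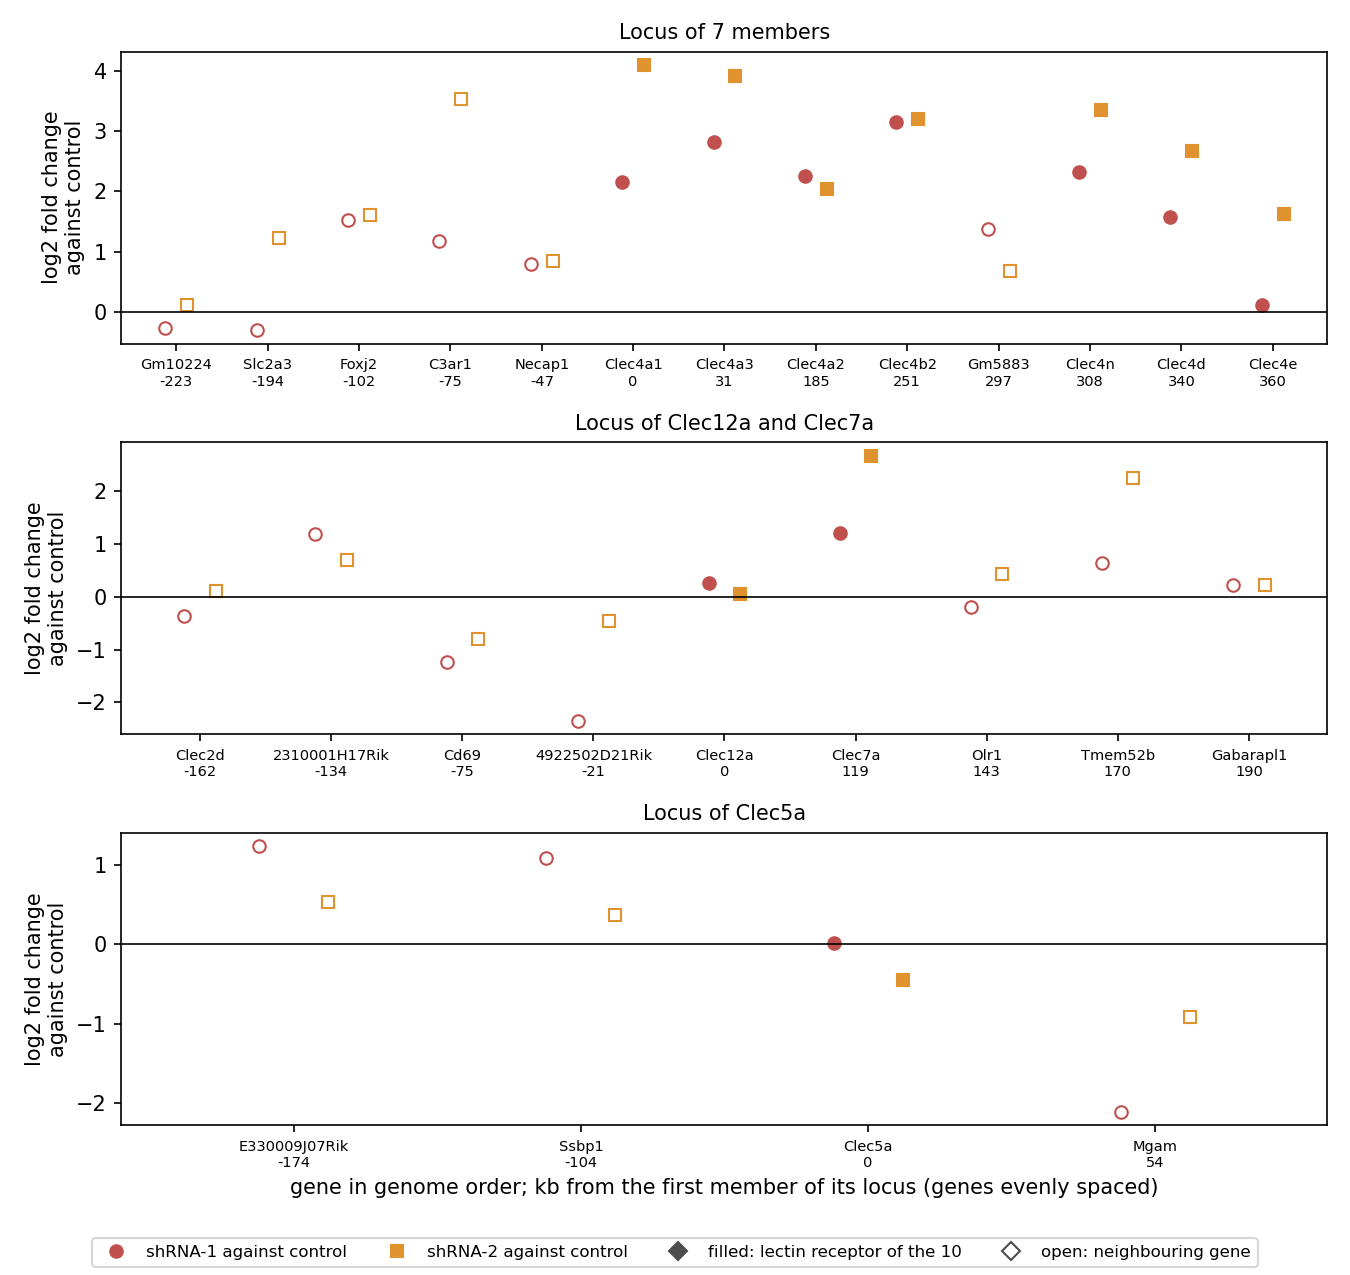
Log2 fold change against control (vertical axis) of the receptor genes (filled) and of the tested genes within 250 kb (open), in genome order and evenly spaced, with the distance in kb from the first receptor gene of each place under the name. Circles are shRNA-1 and squares shRNA-2. The 7 receptors of the cluster lie above 0 with both hairpins, Clec4e only at 0.12 with shRNA-1, and C3ar1 reaches 3.53 with shRNA-2.

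The summed markers of monocytes and of neutrophils were higher in every hairpin library than in any control library. The 20 monocyte and macrophage markers summed to 1642, 2579 and 2901 CPM in shRNA-1 libraries, 2551, 4543 and 4520 CPM in shRNA-2 libraries, and 1101, 1473 and 1442 CPM in control libraries. Abundant genes weigh most in such sums. Lyz2 of this list averaged 1293 CPM with shRNA-1, 1729 CPM with shRNA-2 and 402 CPM in control. Of the neutrophil markers, S100a8 averaged 17770, 21560 and 5607 CPM and S100a9 10980, 13880 and 4828 CPM, in the same order of groups. Of the 18 monocyte and macrophage markers tested, 5 were called higher for shRNA-1 (median log2 change 1.05) and 16 for shRNA-2 (median 2.39). Over all tested genes 17.4% were called higher and 17.3% lower with shRNA-1, and 24.4% and 24.2% with shRNA-2. The shRNA-1 count was 3 without shRNA-1 replicate 3 or control replicate 1, 9 without shRNA-2 replicate 1 and 0 with the ribosomal RNA covariate. Cd68, a macrophage glycoprotein, averaged 75.3 ± 15.3 CPM with shRNA-1, 299.8 ± 43.9 CPM with shRNA-2 and 59.8 ± 4.39 CPM in control. Its log2 change with shRNA-1 (0.33 ± 0.165) did not pass, but did without shRNA-1 replicate 1 (0.49). The scavenger receptor Msr1 averaged 122 ± 35.9 CPM with shRNA-1, 261 ± 112 CPM with shRNA-2 and 37.6 ± 6.20 CPM in control. The 16 neutrophil markers summed to between 29180 and 37520 CPM in shRNA-1 libraries, 35340 and 50250 CPM in shRNA-2 libraries, and 12250 and 12710 CPM in control libraries, and of 15 tested, 12 were higher and 1 lower with shRNA-1 and 9 higher and 4 lower with shRNA-2. The count of falls for shRNA-1 was 0 when replicate 1 or 2 of that group or replicate 3 of the controls was left out. For shRNA-2 it was 2 when replicate 3 of that group or of the controls was left out. Ltf was among the falls with shRNA-2 (-1.15 ± 0.18) and was higher with shRNA-1 (1.52 ± 0.17). Itgb2l also fell with shRNA-2 (-1.59 ± 0.28) and changed by -0.02 ± 0.26 with shRNA-1, which did not pass.

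The lowest sums of the monocyte list within the hairpin groups were those of replicate 1, the libraries in which most receptors were also lowest. In bulk RNA, more cells of a type and more receptor RNA per cell cannot be told apart, and the part of these markers in the receptor values was not tested. Dendritic cell markers summed to between 51.5 and 57.8 CPM with shRNA-1, 98.8 and 134.9 CPM with shRNA-2, and 49.7 and 63.3 CPM in control, with 3 higher and 1 lower of 8 tested with shRNA-1 and 4 higher with shRNA-2. The higher count for shRNA-1 was 1 when replicate 2 or 3 of that group or replicate 1 of the controls was left out, and 0 with the ribosomal RNA covariate or the 5 CPM filter. Megakaryocyte markers summed to between 14.3 and 37.9 CPM with shRNA-1, 57.5 and 110.0 CPM with shRNA-2, and 12.0 and 15.7 CPM in control, with Tubb1 at 0 in all libraries. Of 5 tested, 1 was called higher and 1 lower with shRNA-1, and 3 higher with shRNA-2. Beside the dendritic cell and megakaryocyte counts, 17.4% of all tested genes were higher and 17.3% lower with shRNA-1, and 24.4% higher with shRNA-2. The platelet chemokine gene Ppbp was higher under either hairpin (3.21 ± 0.62 for shRNA-1, 4.25 ± 0.63 for shRNA-2), although for shRNA-1 it did not pass with the ribosomal RNA covariate (1.83). The integrin gene Itgb3 was lower with shRNA-1 (-0.84 ± 0.22) and higher with shRNA-2 (2.27 ± 0.20), the fall not passing without control replicate 3 (-0.68) or with the ribosomal RNA covariate (-0.29). The lists for T and NK cells, B cells, erythroid cells, eosinophils and mast cells, and stroma and endothelium each summed to at most 101.4 CPM in any library. Of their defining genes, Cd3g, Cd8a, Trac, Ncr1, Cd79a, Col3a1 and Pdgfra had no count in any library. Other genes of these lists were counted and called. Eosinophil and mast cell markers summed to between 24.05 and 51.2 CPM with shRNA-1, 39.5 and 50.9 CPM with shRNA-2, and 55.1 and 101.4 CPM in control. Of 5 tested, 3 were lower with shRNA-1, and 1 was higher and 3 lower with shRNA-2 (24.2% of all tested genes were lower). Prg2 was lower under either hairpin (-1.31 ± 0.36 for shRNA-1, -2.15 ± 0.38 for shRNA-2), for shRNA-1 not with the ribosomal RNA covariate (-1.09). With shRNA-2 Cd3d (1.97 ± 0.49) and Il7r (1.04 ± 0.26) of the T and NK cell list were higher. Of 6 stroma and endothelium genes tested, 2 were higher and 2 lower with shRNA-2, and 0 higher and 3 lower with shRNA-1. Kdr (2.84 ± 0.56) and Col1a1 (2.18 ± 0.46) were higher with shRNA-2, at 2.77 and 1.33 CPM. Pdgfrb (-1.83 ± 0.35 for shRNA-1, -2.24 ± 0.35 for shRNA-2) and Krt18 (-1.62 ± 0.27 for shRNA-1, -0.90 ± 0.24 for shRNA-2) were lower under either hairpin. Pecam1 was lower with shRNA-1 (-1.84 ± 0.22). Pdgfrb did not pass for shRNA-1 with the ribosomal RNA covariate (-1.32). Nkg7, a granule gene of cytotoxic lymphocytes, was higher with shRNA-1 (0.88 ± 0.19, but 0.40 and not passing with the ribosomal RNA covariate) and lower with shRNA-2 (-1.38 ± 0.20).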

How the data were processed

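The authors deposited raw counts of reads for each gene symbol, with a table for each library (mm10, STAR 2.3.0e and HTSeq 0.6.0, per the submitters' processing notes). Per the labels' protocols, cDNA was primed with oligo-dT and then with random decamers. The sources used here do not say how strand and multiply mapped reads were treated, so overlapping genes cannot be told apart. Symbols on several entries were summed, which concerned 176 of 38926 symbols and none of the receptors. Depth ran from 9559638 to 19483923 counts, which limits Clec4b2 most.

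filterByExpr kept 12663 genes and removed 0.0908% of the counts. All 9 libraries entered 1 edgeR 4.0.16 fit (R 4.3.3) with TMM factors and the group as its only term, and edgeR's quasi-likelihood test was adjusted by Benjamini-Hochberg over all tested genes, with a threshold of 0.05. Intervals of log2 differences are normal 95% intervals from the standard error. The pipeline was tested on simulated data. The alternatives were DESeq2 size factors, library totals without TMM, no filter, 5 CPM in 3 libraries, DESeq2 1.42.0, limma-voom (limma 3.58.1), a block for the replicate number, a fit restricted to the compared groups, a covariate for the ribosomal RNA share (log2) and leaving out each library. Correlations used log2 CPM with a prior count of 2.

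The genes, the gene lists and the alternatives were chosen with earlier results of these data known. The lists came from general knowledge. Named were all 10 receptors, Syncrip, per list up to 3 genes in each direction with the highest mean level among those called with either hairpin, and the 8 genes most like the mean receptor profile among those of at least 5 CPM whose symbol forms were not skipped. From lists of other cell types only some are described by name, and genes named as having no count in any library were picked after their values were seen. A few of the genes so picked are not reported here. The planned search of protein sequences was not run.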

Additional observations from a re-analysis of the deposited data

Results flagged for a closer look

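The effects of the hairpins, each measured against the same control libraries, differed for 6 receptors in edgeR's test of shRNA-1 minus shRNA-2. The log2 differences were -1.95 for Clec4a1, -1.51 for Clec4e, -1.47 for Clec7a, -1.09 for Clec4a3, -1.09 for Clec4d and -1.03 for Clec4n, and 21.3% of all tested genes were lower with shRNA-1 in the same test. In each of the 6, the 3 shRNA-1 libraries lay below the 3 shRNA-2 libraries. Syncrip itself was lower with shRNA-1, at 17.8 ± 2.13 CPM, than with shRNA-2, at 56.7 ± 9.05 CPM (SD, n = 3 each). The summed monocyte and macrophage markers came to 1642, 2579 and 2901 CPM in shRNA-1 libraries and 2551, 4543 and 4520 CPM in shRNA-2 libraries. The part of the remaining Syncrip and of these markers in the differences was not tested.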

How the results depend on the processing

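Over 9 alternatives, not counting those without a single library, the receptors called higher with shRNA-1 numbered 7. Among these alternatives, the fit restricted to the compared groups left out the group not compared. The exceptions were 6 with the 5 CPM filter, which left Clec4b2 untested, and 4 with the ribosomal RNA covariate. With that covariate 18 genes over all lists were called higher with shRNA-1 instead of 32, and 6.53% of all tested genes instead of 17.4%. With shRNA-2 the number of receptors called higher was 8, or 7 with the 5 CPM filter. Between the hairpins 6 receptors were lower with shRNA-1 than shRNA-2 under every alternative. Leaving out each of the 9 libraries gave 7, 8 and 6 each time. The single call gained without a library was Clec5a between the hairpins (0.74 without shRNA-1 replicate 1). Without the filter Clec5a passed with shRNA-2 (-0.47) and between the hairpins (0.44). Ccl3 with shRNA-1 reversed to 0.17 (edgeR adjusted p = 0.807) with the ribosomal RNA covariate. The cause was not tested.

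Replicate numbers were not taken to pair the samples, since the correlation of same-numbered deviations ran from -0.13 to 0.34 and was not above 0.1 in every pair. As a hint from the data that the numbers may pair the samples, 13 of 18 comparisons were best with their own number. The mean correlation was 0.135 for same-numbered libraries and -0.067 for the others. With the replicate block 7, 8 and 6 receptors were called as before, and over all genes 2552 were higher and 2411 lower with shRNA-1 and 3328 and 3317 with shRNA-2.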

Other observations

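In shRNA-2 replicate 1 the summed receptors and the summed effector genes of SYK and CARD9 signalling stood apart in opposite ways. The 19 effector genes summed to 890.9 CPM there, and to 623.0 and 607.6 CPM in shRNA-2 replicates 2 and 3. Of these genes Ccl4 (184.5 ± 89.4 CPM) and Ccl3 (112.4 ± 68.7 CPM) spread widely over the shRNA-2 libraries (SD, n = 3). The sum therefore need not describe the other effector genes. The 10 receptors summed to 1542 CPM in that library, and to 2497 and 2199 CPM in shRNA-2 replicates 2 and 3. Unlike the summed receptors, Clec4e was highest in replicate 1, at 99.8 CPM against 60.8 and 57.5 CPM in replicates 2 and 3. Clec5a was highest there by little, at 41.5 CPM against 30.4 and 39.4 CPM in replicates 2 and 3. The same library had the lowest ribosomal RNA share of its group, 6.10%. These are values of a single library with no replicate check.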
